A study of Rattus norvegicus with 10 samples.

Results

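The genes described here are the regulators of the sterol regulatory element-binding proteins (SREBPs) in rat liver: Insig1, Insig2, Srebf1, Srebf2, Scap and Stard4. They are 6 of the 14217 genes that the platform's gene table names, and were taken by name, with every probe set that the table assigns to 1 of them alone. This gave 12 probe sets of 31042. Gene expression was measured on 1 array for each of 10 livers of male rats aged 13 weeks. The 5 seasoned livers (N-group, animals 1, 4, 7, 10 and 13) came from rats given for 30 days a diet of 30% instant noodle by weight, with 26% of its energy as fat. The 5 control livers (C-group, animals 2, 5, 8, 11 and 14) came from rats given that diet with the seasonings left out, so noodle and fat were common to both groups. Feeding was paired, at some 60 g of diet per kg and day, and water was free. Precision is limited by the count of arrays.

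SREBPs are transcription factors made as precursors in the endoplasmic reticulum membrane. Scap escorts them to the Golgi, where proteases free the active part, and the Insig proteins hold Scap back when sterols are plentiful. SREBP-2, the product of Srebf2, mainly drives genes of sterol synthesis, and SREBP-1c, a product of Srebf1, mainly drives genes of fatty acid synthesis. Insig1 is itself an SREBP target, whereas in rat and mouse liver a transcript of Insig2 is known to be lowered by insulin. Stard4 encodes a soluble sterol carrier that is also an SREBP-2 target in mouse.

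The promoter windows of the paralog pairs are shown so that the letters of each paralog can be set beside its values. RefSeq (GRCr8) has windows, from 250 bases before to 50 after a transcript start, for 5 of the 6 genes, and 2 starts for Srebf1, of which the downstream one is printed. Stard4 is named only. Capitals mark matches, on either strand, to a form of the sterol regulatory element (TCACNCCA), the CCAAT box of NF-Y (CCAAT, or ATTGG on the other strand) and the E-box (CACGTG).
Insig1, chr4:8057720-8058019, minus strand: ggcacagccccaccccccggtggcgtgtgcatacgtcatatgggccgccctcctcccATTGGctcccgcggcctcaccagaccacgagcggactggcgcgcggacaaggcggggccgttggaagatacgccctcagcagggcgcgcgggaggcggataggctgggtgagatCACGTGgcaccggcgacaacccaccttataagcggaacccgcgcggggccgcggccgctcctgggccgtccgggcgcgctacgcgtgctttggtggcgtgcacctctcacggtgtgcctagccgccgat
Insig2, chr13:35040049-35040348, minus strand: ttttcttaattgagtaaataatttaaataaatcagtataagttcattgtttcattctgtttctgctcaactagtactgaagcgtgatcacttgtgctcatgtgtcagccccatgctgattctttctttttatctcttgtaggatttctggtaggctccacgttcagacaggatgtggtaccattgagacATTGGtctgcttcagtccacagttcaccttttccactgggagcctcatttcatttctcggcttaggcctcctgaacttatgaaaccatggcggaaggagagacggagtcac
Srebf1, chr10:45518961-45519260, minus strand: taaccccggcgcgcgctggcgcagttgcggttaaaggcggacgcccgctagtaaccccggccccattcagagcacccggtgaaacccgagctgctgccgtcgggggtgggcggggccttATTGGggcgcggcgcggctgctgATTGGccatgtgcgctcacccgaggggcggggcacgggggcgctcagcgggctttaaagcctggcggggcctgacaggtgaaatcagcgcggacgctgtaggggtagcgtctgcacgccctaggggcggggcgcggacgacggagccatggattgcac
Srebf2, chr7:115543057-115543356, plus strand: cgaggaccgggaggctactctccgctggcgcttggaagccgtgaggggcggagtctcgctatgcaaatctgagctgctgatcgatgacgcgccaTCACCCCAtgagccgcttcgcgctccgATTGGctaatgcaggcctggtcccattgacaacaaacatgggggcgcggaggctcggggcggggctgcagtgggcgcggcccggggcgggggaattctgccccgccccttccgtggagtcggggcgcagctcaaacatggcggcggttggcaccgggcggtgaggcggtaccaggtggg
The sterol element form was found in the Srebf2 window alone, at positions -156 to -149 from the start, and 3.89% of all 33469 windows hold it. A CCAAT box stood in each of the 4 printed windows, and in 37.5% of all windows. The E-box was found in the windows of Insig1 and of Scap (not printed), against 6.42% of all windows. The half-site of nuclear receptors (AGGTCA), which 16.2% of all windows hold, was in none of these 6 windows. No 2 of these matches overlapped. These are matches of letters within short windows, and the probe sets were not assigned to a start.

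Most probe sets of the deposited table hardly varied. Of all probe sets 87.0% had an SD at or under 0.01 log2 units over the 10 livers, and are called near-constant, while 4050 (13.0%) varied more. Among the 12 probe sets of the SREBP regulators, 9 varied and 3 were near-constant. The near-constant ones were 1377489_at of Srebf2 (5.91 log2 units in the mean of both groups), 1384464_at of Scap (6.51) and 1386279_at of Stard4 (6.57). They carry no measurable difference and are not taken further. Between arrays, the varying probe sets correlated with r from 0.943 to 0.986. The extraction text of the labels speaks of brain, but Alb, the albumin gene of hepatocytes, was at 14.34 in both groups, and 4 of 5 measured brain markers lay below the median probe set. Seasoned livers were on array row A and controls on row B by the sample codes, and the 2 rows cannot be told apart from the 2 diets.

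Insig2 had higher signals in all seasoned livers than in any control liver, on both of its probe sets, and was the member with the smallest p. On 1389377_at it was at 11.41, 11.68, 11.68, 11.15 and 11.37 log2 units in seasoned animals 1, 4, 7, 10 and 13, against 10.96, 10.97, 10.91, 11.08 and 10.79 in control animals 2, 5, 8, 11 and 14. On 1393690_at it was at 10.80, 11, 11.04, 10.51 and 10.88 in the seasoned livers and at 10.32, 10.45, 10.29, 10.46 and 10.45 in the control livers. The groups did not overlap, but the gap was narrow, at 0.07 log2 units on 1389377_at and 0.05 on 1393690_at, and in both it lay below seasoned animal 10. Seasoned animals 4 and 7 had the highest values on both probe sets.

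The mean log2 signal of Insig2 on 1389377_at was 11.46 ± 0.22 in seasoned livers and 10.94 ± 0.11 in controls (SD, n = 5 each). The log2 difference was 0.52 ± 0.11 (SE, 95% interval 0.27 to 0.76), a ratio of 1.43. On 1393690_at the difference was 0.45 ± 0.10 (95% interval 0.23 to 0.68), a ratio of 1.37. Neither passed over all probe sets (adjusted p = 0.573 and 0.629 by limma, unadjusted p = 0.0012 and 0.00151). Among the varying probe sets alone they stood at ranks 36 and 45 of 4050 by p, with adjusted p = 0.0736 and 0.0856 by limma, short of the threshold of 0.05. Among these they passed without seasoned animal 10 (adjusted p = 0.0251 and 0.0195 by limma), and 1389377_at also without control animal 11 (0.0453). Over all probe sets they passed after centring the arrays on the median of the varying ones (0.000755 and 0.00114). That centring spreads the arrays' offsets over near-constant probe sets. With it among the varying probe sets alone, neither passed (adjusted p = 0.0574 for each by limma). The exact two-sided permutation p over 252 assignments of the livers was 0.00794 for each probe set, the smallest that 5 against 5 can give. Both probe sets read the same 10 RNA samples (r = 0.813 after centring on diet), so they are not independent evidence. In whole liver, a change in the cells that make a transcript and a change in transcript per cell cannot be told apart.

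No member was called. Limma called 0 of the 12 probe sets, as it called 0 (0% of 31042) over the whole table, where 1390 (4.48%) had an unadjusted p under 0.05. A statistic with unequal variances called 0 as well, with 1139 at an unadjusted p under 0.05, and a trended robust variance called 0, with 1317. Among the varying probe sets alone limma called 13 (0.321% of 4050), and 0 of them were SREBP regulators. At an unadjusted p under 0.05 in the fit over all probe sets stood 2 of the 9 varying ones, both of Insig2, against 12.5% of varying probe sets (12.9% in the fit of these alone). Both were higher in seasoned livers, as were 6.69% of varying probe sets (6.62% in the fit of these alone) and 2.56% of all at that p. The groups did not overlap in the same 2 of 9 (22.2%), against 2.99% of varying probe sets and 0.77% of all (1.73% and 0.47% with seasoned livers higher). The mean was higher in seasoned livers for 8 of 9, against 53.3% of varying and 50.6% of all probe sets. By the brightest varying probe set of each gene it was higher for 5 of 6. Among the 8, Scap (0.04) and Stard4 on 1396521_at (0.02) turned to -0.03 with animals 1 to 7 and 8 to 14 as a block. Probe sets of the same gene are not independent. The 2 that did not overlap both belong to Insig2, so they stand for 1 gene of 6.

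**Figure D1:**
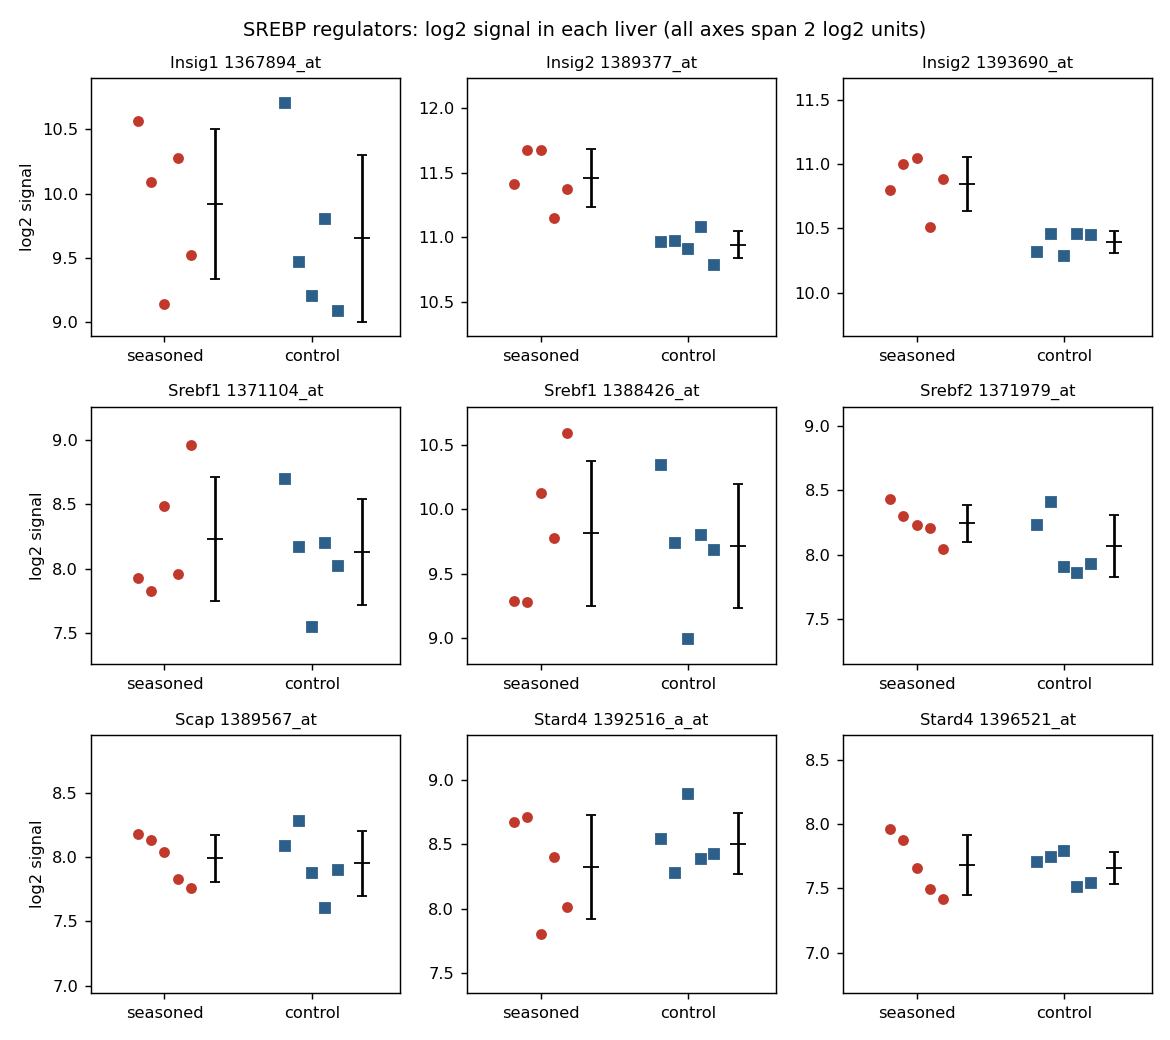
Log2 signal of each liver for the 9 varying probe sets, seasoned livers as circles left of control livers as squares, with the mean and SD beside each group and axes that all span 2 log2 units. The Insig2 panels show separate groups, with seasoned livers from 11.15 to 11.68 and controls from 10.79 to 11.08 on 1389377_at, while the groups overlap in the other 7 panels.

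Insig1, the other gene of this family, differed by less between the diets than between livers of 1 diet. Its only probe set, 1367894_at, was at 10.56, 10.09, 9.14, 10.28 and 9.52 in seasoned animals 1, 4, 7, 10 and 13, against 10.70, 9.47, 9.20, 9.81 and 9.08 in control animals 2, 5, 8, 11 and 14. The highest value was that of control animal 2 and the lowest that of control animal 14, so the groups overlapped fully. The mean was 9.92 ± 0.58 in seasoned livers and 9.65 ± 0.65 in controls (SD, n = 5 each), a difference of 0.27 with a 95% interval of -0.60 to 1.13 (unadjusted p = 0.502 by limma). The interval holds the difference measured for Insig2 as well as no difference.

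Whether the Insig genes answered the diet unequally was tested on their difference within each liver. Insig1 minus Insig2 was -0.85, -1.59, -2.54, -0.87 and -1.85 log2 units in the seasoned livers, in the order of animals above, and -0.26, -1.51, -1.71, -1.27 and -1.70 in the control livers. The diets overlapped, and their means of -1.54 ± 0.71 in seasoned livers and -1.29 ± 0.60 in controls (SD, n = 5 each) lay closer than the spread within either. The difference of the differences was -0.25 (95% interval -1.21 to 0.71, exact two-sided permutation p = 0.587). In animals 1 to 7 alone it came to -0.78, in animals 8 to 14 alone to 0.20, and without control animal 2 to 0.01. The data thus do not separate the responses of Insig1 and Insig2, although the diets overlapped for Insig1 and not for Insig2.

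**Figure D2:**
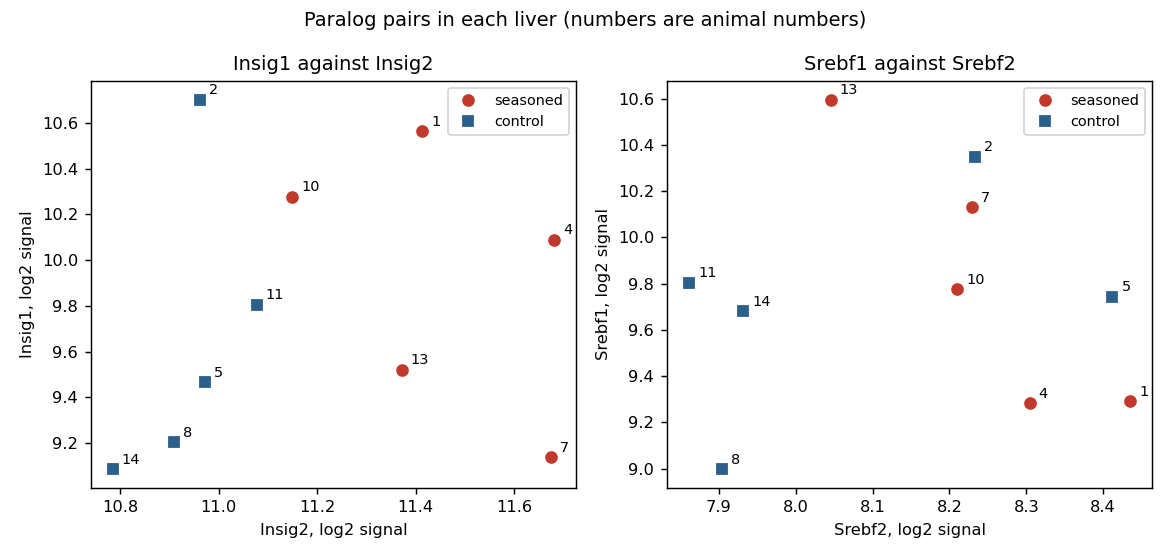
Log2 signal of Insig1 against Insig2 (left) and of Srebf1 against Srebf2 (right) in each liver, with seasoned livers as circles and controls as squares, numbered by animal. Along the Insig2 axis all seasoned livers lie right of all controls, at or above 11.15, while both diets spread over the Insig1, Srebf1 and Srebf2 axes.

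Srebf1, which encodes SREBP-1a and SREBP-1c, also differed by less between the diets than within them. On 1388426_at it was at 9.29, 9.28, 10.13, 9.78 and 10.60 in seasoned animals 1, 4, 7, 10 and 13, against 10.35, 9.74, 9, 9.80 and 9.68 in control animals 2, 5, 8, 11 and 14. Seasoned animal 13 was highest and control animal 8 lowest, and the groups overlapped. The mean was 9.82 ± 0.56 in seasoned livers and 9.71 ± 0.48 in controls (SD, n = 5 each), with a difference of 0.10 (95% interval -0.64 to 0.84, unadjusted p = 0.762 by limma). The second probe set, 1371104_at, gave 0.10 (95% interval -0.53 to 0.74) and followed the first over the livers with r = 0.971 after centring on diet. The diet difference changed sign between the animal-number sets, being -0.48 in animals 1 to 7 alone and 0.69 in animals 8 to 14 alone on 1388426_at.

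Srebf2, the gene of the sterol-specific SREBP-2, had a narrow range. Its varying probe set, 1371979_at, was at 8.44, 8.30, 8.23, 8.21 and 8.05 in seasoned animals 1, 4, 7, 10 and 13, against 8.23, 8.41, 7.90, 7.86 and 7.93 in control animals 2, 5, 8, 11 and 14. Of the seasoned livers, 1 lay above all controls, and 3 controls lay below all seasoned livers. The mean was 8.24 ± 0.14 in seasoned livers and 8.07 ± 0.24 in controls (SD, n = 5 each), with a difference of 0.18 (95% interval -0.10 to 0.46, unadjusted p = 0.185 by limma). With animals 1 to 7 and 8 to 14 as a block it was 0.11 ± 0.07 (SE).

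Srebf1 minus Srebf2 was 0.86, 0.98, 1.90, 1.57 and 2.55 in the seasoned livers, in the same order, and 2.11, 1.33, 1.09, 1.94 and 1.75 in the control livers. The seasoned livers spread beyond the controls on both sides. The difference of the differences was -0.08 (95% interval -0.92 to 0.76, exact two-sided permutation p = 0.857). It came to -0.48 in animals 1 to 7 alone and to 0.46 in animals 8 to 14 alone.

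Scap, the escort of the SREBPs, had overlapping diets. On 1389567_at it was at 8.18, 8.13, 8.04, 7.83 and 7.76 in seasoned animals 1, 4, 7, 10 and 13, against 8.09, 8.28, 7.88, 7.61 and 7.90 in control animals 2, 5, 8, 11 and 14. Both the highest and the lowest value were those of controls. The difference was 0.04 (95% interval -0.27 to 0.35, unadjusted p = 0.782 by limma), and its sign turned to -0.03 with the animal-number sets as a block.

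Stard4, the sterol carrier, had overlapping diets on both varying probe sets. On 1392516_a_at it was at 8.67, 8.71, 7.80, 8.40 and 8.01 in seasoned animals 1, 4, 7, 10 and 13, against 8.54, 8.28, 8.89, 8.38 and 8.42 in control animals 2, 5, 8, 11 and 14. Seasoned animals 7 and 13 were the lowest of the 10 livers. The mean was 8.32 ± 0.40 in seasoned livers and 8.50 ± 0.24 in controls (SD, n = 5 each), with a difference of -0.18 (95% interval -0.65 to 0.28, unadjusted p = 0.397 by limma). It was -0.05 without seasoned animal 7, -0.11 without seasoned 13, -0.08 without control 8, -0.27 without seasoned 1 and -0.28 without seasoned 4. On 1396521_at the values ran from 7.42 to 7.96 in seasoned livers and from 7.51 to 7.79 in controls, with a difference of 0.02 (95% interval -0.24 to 0.29), which turned to -0.03 with the animal-number sets as a block. The 2 probe sets correlated with r = 0.629 after centring on diet.

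**Figure D3:**
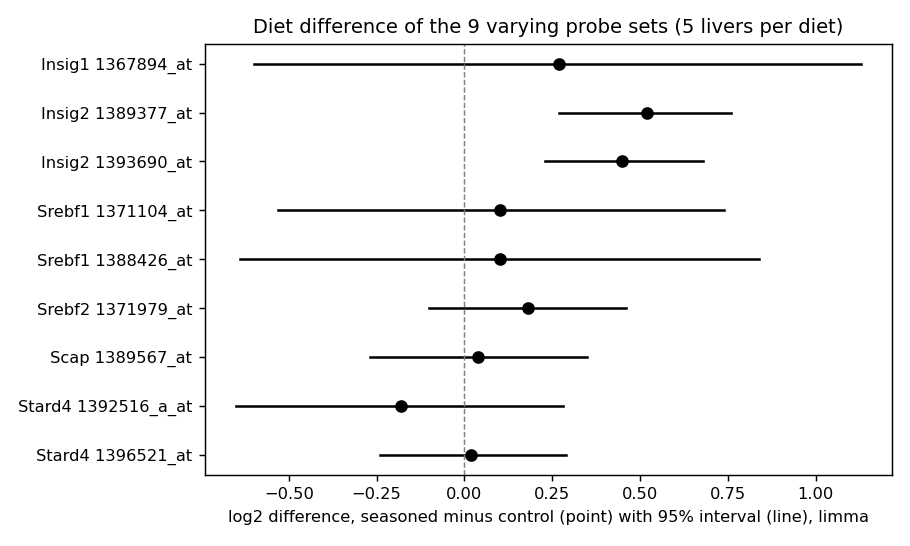
Log2 difference, seasoned minus control, of the 9 varying probe sets (points) with 95% intervals from limma (lines). The intervals of the Insig2 probe sets, from 0.27 to 0.76 and from 0.23 to 0.68, lie above 0, and the other 7 include 0.

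Part of the spread within the diets followed the animal numbers. Animals 1 to 7 and animals 8 to 14 are sets found in these data in earlier work, which the labels do not name, and the later animals also hold the later array positions of each row. Srebf2 ran from 8.23 to 8.44 in animals 1 to 7 and from 7.86 to 8.21 in animals 8 to 14, without overlap. Scap ran from 8.04 to 8.28 in animals 1 to 7 and from 7.61 to 7.90 in animals 8 to 14, also without overlap. These were 2 of the 9 varying probe sets of the members, a share near the background, since 17.7% of all varying probe sets did not overlap between the sets (16.1% with animals 8 to 14 lower). For Insig2 on 1389377_at, animals 8 to 14 minus animals 1 to 7 gave -0.33 among seasoned livers and -0.04 among controls. Its diet difference was 0.62 in animals 1 to 7 alone, 0.34 in animals 8 to 14 alone, and 0.48 ± 0.10 (SE) with the sets as a block. With array position as a covariate, limma gave differences of 0.56 for Insig2 on 1389377_at, 0.51 for Insig1, 0.28 for Srebf2 (unadjusted p = 0.0101, adjusted p = 0.448), 0.15 for Scap and 0.01 for Srebf1 on 1388426_at. No member was called with it.

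**Figure D4:**
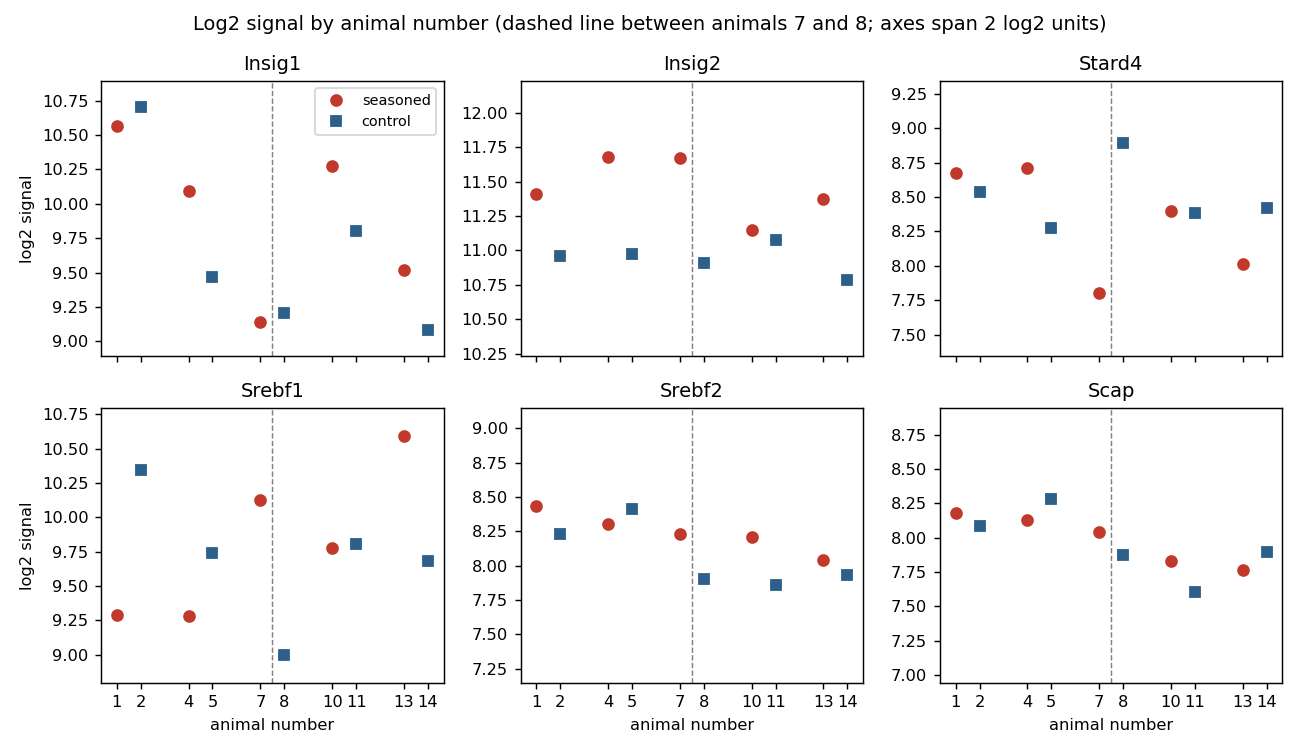
Log2 signal of the representative probe set of each member against animal number, seasoned livers as circles and controls as squares, with axes that span 2 log2 units and a dashed line between animals 7 and 8. Srebf2 and Scap are lower in every animal right of the line, and Insig2 is higher in seasoned livers on both sides of it.

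Relations among the members were computed over the 10 livers after centring each gene on its diet mean, for all 15 pairs. Srebf2 and Scap moved together, with Pearson r = 0.917 (exact within-diet permutation p = 6.94e-05, the smallest possible, and 0.00104 after adjustment for 15 relations) and Spearman rho = 0.952 (exact permutation p = 6.94e-05). Without the 2 livers farthest from the median Srebf2, r was 0.840. Of all varying probe sets with 1 gene, however, 51.8% had an r over 0.5 with Scap and 47.2% with Srebf2. Centred on the animal-number sets as well, r was 0.711 (exact permutation p = 0.00694, the smallest that 144 arrangements can give, adjusted p = 0.104). With adjustment for 15 relations, 1 relation alone at that smallest p cannot pass. This adjusted p thus does not decide whether the relation held within the sets.

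Srebf1 and Stard4 ran in opposite directions, with r = -0.771 (exact permutation p = 0.0234, or 0.176 after adjustment for 15 relations) and rho = -0.830 (exact permutation p = 0.0148). Without the 2 livers farthest from the median Srebf1, r was -0.629, and within the sets it was -0.787. The relation failed the correction. Insig1 and Insig2 had r = -0.111 (exact permutation p = 0.765, rho = -0.0667 with p = 0.876), and Srebf1 and Srebf2 had r = -0.0877 (exact permutation p = 0.825, rho = -0.139 with p = 0.718). Centred on the sets as well, r was -0.279 for the Insig pair (exact permutation p = 0.528) and -0.767 for the Srebf pair (exact permutation p = 0.0833, or 0.208 after adjustment for 15 relations). Neither relation passed.

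The members differed in part in which pathway genes they followed, while Scap had medians near those of Srebf2. These correlations are over the same 10 arrays, centred on diet, and are descriptions. Srebf1 had a median r of 0.624 with 14 genes of fatty acid synthesis, and 8 of them exceeded 0.5, against 6.84% of all varying probe sets with 1 gene. The highest were Fasn, fatty acid synthase (0.859), the elongase Elovl5 (0.858), the lipogenic regulator Thrsp (0.823) and Acly, ATP citrate lyase (0.811). The desaturase genes Fads1 (-0.097) and Fads2 (-0.081) and malic enzyme Me1 (-0.0437) did not share this course. Within the animal-number sets the median was 0.636, with 9 of 14 over 0.5. Over all varying probe sets with 1 gene it was -0.185 there, with 12.4% over 0.5.

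With 15 varying genes of sterol synthesis, Srebf1 had a median r of -0.328, against -0.119 over all varying probe sets. For these correlations, all varying probe sets are the 3232 that name 1 gene other than the members. The only positive r was that of the sterol dehydrogenase Nsdhl (0.881). Within the sets the median of Srebf1 with these genes was -0.812, against -0.185 over all varying probe sets. Srebf2 had a median r of 0.657 with the sterol genes, 12 of 15 over 0.5, led by Cyp51, lanosterol demethylase (0.842), and Dhcr7, which makes cholesterol from its last precursor (0.826). Against the 47.2% of all varying probe sets over 0.5, and their median of 0.460, the Srebf2 values lay higher, in a background that was itself high. Other lists stood as high with Srebf2. Its median was 0.656 with 8 varying genes of sterol uptake, storage and movement. With 3 genes of SREBP activation and Insig or reductase degradation it was 0.73. It was -0.15 with fatty acid genes and -0.24 with 6 genes of insulin and LXR input, although Akt2 of the latter (0.912) lay above Cyp51. Within the sets the median of Srebf2 with sterol genes was 0.575, against 0.196 over all varying probe sets. Insig1 had a median of 0.334 with the sterol genes (0.0253 over all), with Fdps, farnesyl diphosphate synthase, highest at 0.677. Within the sets its median was 0.0889, against -0.219 over all varying probe sets. Centred on diet alone, Insig2 had a median r of -0.00571 with sterol genes and 0.019 with fatty acid genes. The median over all varying probe sets was 0.190. Within the sets Insig2 had a median of -0.348 with sterol genes and 0.345 with fatty acid genes, against -0.181 over all varying probe sets. Scap had a median of 0.598 with sterol genes (11 of 15 over 0.5) and -0.167 with fatty acid genes, against 0.531 over all. Stard4 had 0.326 with sterol genes and -0.354 with fatty acid genes, against 0.0499 over all. Within the sets the sterol medians were 0.555 for Scap (0.396 over all) and 0.529 for Stard4 (0.0342 over all).

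**Figure D5:**
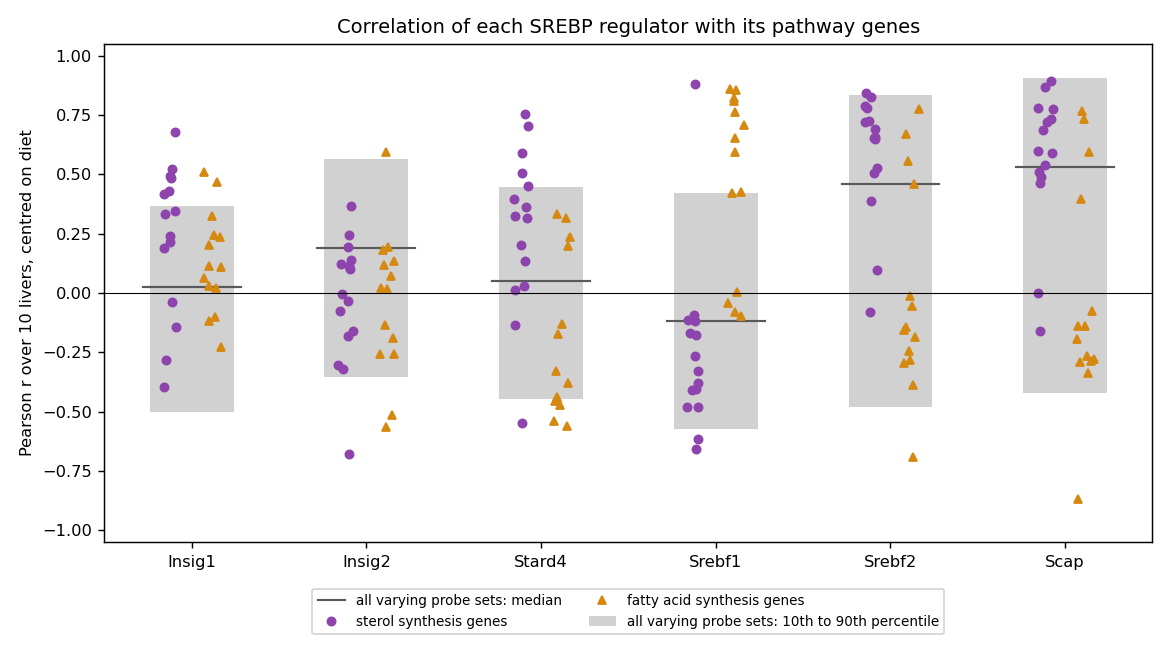
Pearson r over 10 livers, after centring on diet, between each SREBP regulator and 15 genes of sterol synthesis (circles) or 14 of fatty acid synthesis (triangles), with grey bars for the range from the 10th to the 90th percentile of all varying probe sets with 1 gene and lines for their median. Srebf1 has a median of 0.624 with fatty acid genes. Srebf2 has a median of 0.657 with sterol genes, while the median of all varying probe sets with Srebf2 was 0.460. Its medians with the genes of sterol uptake (0.656) and of SREBP activation (0.73), not drawn, were as high.

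The genes whose course over the livers was most like that of a member were sought among 3232 varying probe sets of other genes, by Pearson r over 10 livers after centring on diet. For Insig2 they were Lgalsl, a galectin-like gene (0.939), Irf1, an interferon-responsive transcription factor gene (0.919), and Myc (0.874), whose own diet differences were 0.98, 0.41 and -0.01. For Insig1 they were Cela1 (0.876), Yeats4 (0.818) and Dpys, dihydropyrimidinase (0.721). For Srebf1 they were the adiponectin receptor gene Adipor2 (0.922), Nsdhl (0.881) and Ppib (0.879). Srebf2 was followed by Repin1 (0.973), Ergic3 (0.968) and Actr1b (0.964), and Scap by Wbp1l (0.991), Zfp281 (0.988) and Aplp2 (0.988). Stard4 was nearest to the methyltransferase gene Inmt (0.911), Zfp467 (0.894) and Larp4b (0.890).

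Clock genes are set beside Insig2, chosen after their values had been seen. Nr1d1 and Nr1d2 encode the REV-ERB receptors, transcriptional repressors, of which REV-ERB alpha is known to act on Insig2 in mouse liver. Nr1d2 was at 8.33 ± 0.43 in seasoned livers and 9.39 ± 0.24 in controls, and Nr1d1 at 7.13 ± 0.55 in seasoned livers and 8.09 ± 0.42 in controls (SD, n = 5 each). Neither difference passed (-1.06 with adjusted p = 0.520 and -0.96 with adjusted p = 0.850 over all probe sets by limma). Control animal 11 had the highest Insig2 signal of the controls on 1389377_at (11.08). On 1393690_at its 10.46 was next to the 10.45 of control animals 5 and 14. It had the lowest Nr1d2 and Nr1d1 of the controls, at 8.98 (9.41 to 9.55 in the others) and 7.40 (7.97 to 8.43). This is 1 liver, and among the controls it was lowest in other genes too. These include Srebf2 (7.86, next to 7.90 and 7.93 in control animals 8 and 14) and Scap (7.61), but not Insig1 or Srebf1. Without control animal 11 limma called 84 varying probe sets instead of 13.

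Centred on diet, Insig2 and Nr1d2 had r = -0.757 (exact within-diet permutation p = 0.0411, or 0.233 after adjustment for 17 relations) and rho = -0.794 (exact permutation p = 0.0317). Without the 2 livers farthest from the median Insig2, r was -0.721, and centred on the animal-number sets as well it was -0.439 (exact permutation p = 0.354). Insig2 and Nr1d1 had r = -0.565 (exact permutation p = 0.154, rho = -0.442 with p = 0.270). Neither relation passed, and a part of the clock genes in the diet difference of Insig2 was not tested. Without control animal 11 the Insig2 difference on 1389377_at was 0.55.

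The wider pathway was read from lists whose genes were chosen with earlier results of these data known, so their counts are descriptions. Of 17 measured sterol synthesis genes 15 varied, all 15 were higher in seasoned livers (median log2 difference 0.51), and 0 were called. The 4 with the smallest p were Fdps (0.53 ± 0.12, SE), Cyp51 (0.70 ± 0.19), Lss, lanosterol synthase (0.61 ± 0.18), and Mvd, which was near-constant at 6.88. An unadjusted p under 0.05, higher in seasoned livers, was reached by 11 of the 15, against 6.69% of varying probe sets. Over all varying probe sets the median difference was 0.01.

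Fatty acid synthesis genes were mixed in direction. All 14 varied, 9 were higher and 5 lower in seasoned livers, the median difference was 0.08 and 0 were called. Gpam, the first enzyme of glycerolipid synthesis, differed by 0.23 ± 0.05 (SE) and did not overlap between the diets, Scd, a desaturase, differed by -0.49 ± 0.24, the acetyl-CoA synthetase Acss2 by 0.27 ± 0.17, and Elovl5 by 0.06 ± 0.05.

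The machinery that releases SREBPs or degrades the Insig proteins was near-constant for the most part, as were 87.0% of all probe sets. Of 15 measured genes 3 varied, namely Erlin1 (-0.12 ± 0.08, SE), which takes part in the sterol-driven degradation of HMG-CoA reductase, Fbxw7 (0.10 ± 0.08), which marks nuclear SREBPs for breakdown, and Aup1 (0.05 ± 0.06). Mbtps1 and Mbtps2, the proteases that cut SREBPs, were near-constant at 7.87 and 6.90, as were Ube2g2 (7.97) and Erlin2 (8.22 in seasoned livers and 8.21 in controls). None of the 15 was called by limma, over all probe sets or among the varying ones, and 0 had an unadjusted p under 0.05 among the 3 that varied.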

How the data were processed

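Liver RNA of 10 rats was measured on 1 biotin-labelled array each. Signals were deposited by the authors on a log2 scale. Their normalisation, not given in the sources used here, is unknown, and the log base was inferred from the values (4.79 to 14.34). Of 31099 probe sets, 57 controls were left out. The platform table names 1 gene for 20826 probe sets, several for 436 and none for 9780. Symbols were updated through the GRCr8 gene table (20758 matched).

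The diets were compared with limma 3.58.1 (lmFit, eBayes, two-sided) in R 4.3.3 over all 31042 probe sets, with Benjamini-Hochberg adjustment and a threshold of 0.05. No filter was applied, and a repeat used only probe sets with an SD over 0.01. A gene was represented by its brightest varying probe set. The fits were tested on simulated data with independent noise and changes put into varying probe sets. Of changes of 0.5 log2 units, 34% were called over all probe sets and 63% among the varying ones. For changes of 1 log2 unit the shares were 77% and 92%. Alternatives changed the probe sets tested, normalisation, variance model and covariates, or left out each liver. Paralog contrasts and relations used exact permutation in Python 3.11.15. P-values measure the spread between rats. Members, lists, alternatives and animal-number sets were chosen with earlier results of these data known. Named genes are all members, 4 genes of lowest p per list, and the 3 nearest each member by r; Nr1d1, Nr1d2 and the other list genes named were added after their values had been seen.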

Additional observations from a re-analysis of the deposited data

How the results depend on the processing

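No paired analysis was possible because the diets share no animal number and the labels do not say which rats were fed as pairs. The count of called probe sets over the table was 0, but 13 with varying probe sets only, 255 after centring arrays on the median of varying probe sets (which spreads the arrays' offsets over near-constant probe sets), and 0 to 10 with 1 liver left out, the 10 without control animal 11. Added after seeing the data, fits on varying probe sets called 22 with the animal-number set block, 13 with a trended robust variance, 21 after centring, and 0 to 84 with 1 liver left out (0 without seasoned animals 1, 4 or 7 or control 14, 21 without seasoned 10, 8 without seasoned 13, and 18, 3, 2 and 84 without control 2, 5, 8 and 11). Of the members, 2 were called instead of 0, both of Insig2, after centring over all probe sets (adjusted p = 0.000755 and 0.00114 by limma), and among varying probe sets 2 were called without seasoned animal 10 (0.0251 and 0.0195) and 1 without control animal 11 (0.0453). After centring among varying probe sets 0 members were called, with adjusted p = 0.0574 by limma for each Insig2 probe set. The Insig2 difference was positive in 63 of 63 values over its 2 probe sets and the alternatives run, from 0.46 to 0.59 on 1389377_at and from 0.41 to 0.54 on 1393690_at in those planned. Since the groups did not overlap, leaving out a liver or changing the variance model could not turn the sign. The 63 values come from the same 10 livers, so their count adds no support.

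Insig1 against Insig2 lay between -0.42 and 0.01 with 1 liver left out, above 0 without control animal 2 (0.01). Srebf1 against Srebf2 lay between -0.32 and 0.10, above 0 without seasoned animal 1 (0.10) or 4 (0.07) or control animal 2 (0.04), and at 0.01 with the mean of all probe sets. With 1 liver left out, Srebf1 ranged to 0.25 (1371104_at) and 0.26 (1388426_at), Scap to 0.12, Stard4 on 1392516_a_at from -0.28 to -0.05 and Stard4 on 1396521_at to 0.09. Srebf1 differed by -0.08 (1371104_at) and -0.09 (1388426_at) without seasoned animal 13, and by -0.04 and -0.08 without control animal 8. Scap differed by -0.03 with the animal-number block in both fits, -0.01 without seasoned animal 1 and -0.05 without control animal 11. Stard4 on 1396521_at differed by -0.03 with the block in both fits, -0.05 without seasoned animal 1, -0.03 without seasoned animal 4, and -0.01 without control animals 11 or 14. Insig1 differed by 0.10 without seasoned animal 1 and 0.53 without control animal 2. Centred on the sets as well, the count of relations passing was 0 against 1, though 1 relation alone could not pass there even at the smallest possible p. With that centring r was -0.24 for Insig1 and Srebf1, -0.266 for Insig1 and Scap, 0.474 for Insig2 and Srebf1, -0.731 for Insig2 and Srebf2 and -0.686 for Insig2 and Scap. The cause of these changes was not tested. No alternative brought the pathway genes from 0 calls to any in the fits run for them (varying probe sets, the block and leaving out each liver).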

Other observations

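Genes of sterol uptake, storage and movement were mixed in direction. Of 15 measured genes 8 varied, 5 higher and 3 lower in seasoned livers, with a median difference of 0.06 and 0 called by limma, over all probe sets or among the varying ones (0 at an unadjusted p under 0.05). The 4 with the smallest p were Stard5, another sterol-binding protein of the Stard4 subfamily (0.31 ± 0.13, SE), Tmem97, a sterol-responsive membrane protein (0.25 ± 0.12), Lipa, the lysosomal lipase that frees cholesterol (0.15 ± 0.15), and Soat1, near-constant at 6.07. The exporter gene Abca1 differed by -0.02 ± 0.08.

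Of 20 measured genes of insulin signalling and LXR input to SREBP-1c, 6 varied, 4 higher and 2 lower in seasoned livers (median 0.12), with 0 called by limma in both fits and 0 at an unadjusted p under 0.05. Nfyb, a subunit of the CCAAT-binding factor, differed by -0.25 ± 0.14 (SE) and Sp1 by 0.12 ± 0.08, while Crtc2 (7.77) and Usf2 (8.15) were near-constant. The LXR genes Nr1h3 and Nr1h2 and the insulin receptor gene Insr were near-constant at 8.94, 7.45 and 7.55, as were most probe sets of the table. Irs2, an insulin receptor substrate lowered by insulin in rodent liver, had r = -0.754 with Srebf1 over the 10 livers after centring on diet, and Mlxipl, which encodes the glucose-responsive factor ChREBP, had r = 0.763. These were the lowest and the highest r with Srebf1 among the 6 varying genes, whose median was 0.0731. The others ran from -0.28 (Sp1) to 0.258 (Nfyb).

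Marker lists gave 0 calls by limma between the diets. The mean log2 level of 5 macrophage and Kupffer cell markers ran from 7.75 to 8.38 in seasoned livers and from 7.89 to 8.17 in controls, that of 6 hepatocyte markers from 12.63 to 12.69 in seasoned livers and from 12.58 to 12.68 in controls, and that of 5 stellate cell markers from 7.21 to 7.25 in seasoned livers and from 7.18 to 7.39 in controls. At an unadjusted p under 0.05 stood 1 of them, the hepatocyte marker Apoa1, higher in seasoned livers by 0.23 ± 0.07 (SE), with no overlap between the diets. The part of cell type markers in the Insig2 difference was not tested.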
